A study of Homo sapiens with 8 samples.

Results

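The TP63 locus of human colonic epithelial cells was described here through its acetylated intervals, defined as every H3K27ac peak in the TP63 gene body or within 200 kb on either side. TP63 (ENSG00000073282.14) lies on the plus strand at chr3:189631389-189897276 (hg38, GENCODE release 44), spans 265.9 kb and has 14 annotated transcripts, which gave a window of 665.9 kb at chr3:189431389-190097276. Peaks of the 6 libraries that overlapped or touched were merged, and 22 of the 143733 merged intervals of the genome fell in this window. The locus was chosen by its readout: an interval in a TP63 intron had one of the largest downward rank shifts between the genotypes, so every difference between WT and CREBBP-KO at the locus is given as a description, with no test.

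The cells were HCEC-1CT, a commercial line of colonic epithelial cells immortalized with cyclin-dependent kinase 4 and telomerase, and H3K27ac, acetylation of lysine 27 on histone H3, was profiled by ChIP-seq. The groups were 3 WT and 3 CREBBP-KO libraries of growing, untreated cells. Whether the libraries of a genotype came from separate populations or from repeat cultures of the same population is not stated. Per the study's methods both genotypes derive from cells that carry a doxycycline-inducible Cas9, and CREBBP was disrupted with a synthetic guide RNA. The methods call the CREBBP-KO cells of the ChIP-seq monoclonal, yet also describe final populations made by pooling several clones, with pooled parental subclones as the WT match, so the number of clones behind a library is uncertain. The peak lists hold no reads, so they cannot check the edit of CREBBP, and depth is unknown. A place without a peak is one where no enrichment was called, which does not show that acetylation was absent.

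The gene TP63 encodes p63, a transcription factor that maintains the basal layer of stratified epithelia. It has a pair of promoters: the upstream one gives long isoforms with a transactivation domain (TAp63), and an internal one gives short isoforms that lack it (ΔNp63), the main form of basal keratinocytes. H3K27ac marks active promoters and enhancers, and CREBBP, with its paralogue EP300, is an acetyltransferase that deposits it.

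In GENCODE, the long-isoform start (transcript of 14 exons) is at position 189631389, and 5 protein-coding transcripts start there or within the bases up to 189631516. The short-isoform start (transcript of 12 exons) is at 189789659, 158.3 kb downstream and inside intron 3 of the long isoform, with 7 protein-coding transcripts starting between it and 189789801. Intervals are named here by the distance of their highest summit from the long-isoform start.

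The sequences below are those on which the description turns: the 250 bases before the short-isoform start, the windows of 300 bases around the summits of the intron 1 intervals with the highest folds and of one seen in WT alone, the stretch between the paired CREBBP-KO peaks of the +78.9 kb interval, the interval seen in CREBBP-KO alone, the highest interval of the window, and the one window with a p63 half-site. They were read on the plus strand of hg38 from 5′ to 3′. Capitals mark matches, on either strand, to AP-1 (TGANTCA), CRE (TGACGTCA), TEAD (GGAATG), RUNX (TGTGGT), ZEB (CAGGTG) or the p63 half-site.
The short-isoform start, chr3:189789409-189789658: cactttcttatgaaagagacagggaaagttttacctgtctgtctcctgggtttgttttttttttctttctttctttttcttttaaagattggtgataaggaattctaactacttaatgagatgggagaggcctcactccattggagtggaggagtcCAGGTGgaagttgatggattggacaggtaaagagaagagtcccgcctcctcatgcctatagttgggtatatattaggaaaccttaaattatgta
The +32.8 kb interval, chr3:189664010-189664309: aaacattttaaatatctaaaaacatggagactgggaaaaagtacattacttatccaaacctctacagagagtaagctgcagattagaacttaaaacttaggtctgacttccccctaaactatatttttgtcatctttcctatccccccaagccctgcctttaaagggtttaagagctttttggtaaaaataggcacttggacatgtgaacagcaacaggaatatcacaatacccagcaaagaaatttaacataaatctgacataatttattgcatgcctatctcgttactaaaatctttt
The +54.8 kb interval, chr3:189686065-189686364: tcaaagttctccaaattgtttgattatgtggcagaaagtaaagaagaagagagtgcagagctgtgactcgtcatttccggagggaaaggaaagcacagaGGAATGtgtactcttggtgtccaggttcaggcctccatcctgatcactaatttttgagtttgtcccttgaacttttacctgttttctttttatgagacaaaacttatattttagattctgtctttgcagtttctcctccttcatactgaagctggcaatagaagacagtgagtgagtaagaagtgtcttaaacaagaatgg
The +78.9 kb interval, chr3:189710164-189710463: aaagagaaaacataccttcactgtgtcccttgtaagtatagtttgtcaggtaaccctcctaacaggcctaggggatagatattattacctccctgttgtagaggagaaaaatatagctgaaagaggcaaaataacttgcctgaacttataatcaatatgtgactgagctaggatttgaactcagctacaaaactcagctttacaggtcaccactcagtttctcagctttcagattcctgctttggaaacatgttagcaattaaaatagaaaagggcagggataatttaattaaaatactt
Between the paired peaks of +78.9 kb, chr3:189710634-189710933: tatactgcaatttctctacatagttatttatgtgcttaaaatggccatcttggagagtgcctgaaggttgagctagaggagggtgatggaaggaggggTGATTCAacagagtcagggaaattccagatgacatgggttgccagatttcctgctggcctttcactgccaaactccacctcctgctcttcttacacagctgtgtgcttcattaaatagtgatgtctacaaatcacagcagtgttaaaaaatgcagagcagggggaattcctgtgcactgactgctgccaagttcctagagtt
The +283.9 kb interval, chr3:189915163-189915462: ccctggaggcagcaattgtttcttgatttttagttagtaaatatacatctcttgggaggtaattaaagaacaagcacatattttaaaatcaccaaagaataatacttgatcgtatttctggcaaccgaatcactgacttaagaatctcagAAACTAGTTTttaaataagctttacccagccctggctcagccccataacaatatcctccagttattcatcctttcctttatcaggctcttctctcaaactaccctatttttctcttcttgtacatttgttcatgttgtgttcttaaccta
The +306.2 kb interval, chr3:189937390-189937689: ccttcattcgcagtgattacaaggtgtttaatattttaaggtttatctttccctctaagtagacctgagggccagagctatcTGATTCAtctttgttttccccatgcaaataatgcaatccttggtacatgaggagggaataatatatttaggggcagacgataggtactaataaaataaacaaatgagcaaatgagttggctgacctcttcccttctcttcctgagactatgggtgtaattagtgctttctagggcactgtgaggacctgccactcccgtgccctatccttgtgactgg
The +445.3 kb interval, chr3:190076568-190076867: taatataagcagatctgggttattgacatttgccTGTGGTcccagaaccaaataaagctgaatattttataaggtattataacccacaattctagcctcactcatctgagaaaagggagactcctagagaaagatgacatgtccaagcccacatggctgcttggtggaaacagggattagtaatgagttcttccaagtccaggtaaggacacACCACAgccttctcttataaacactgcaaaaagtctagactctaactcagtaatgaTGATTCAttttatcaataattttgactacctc

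The matches in these windows were few. The +54.8 kb window held a TEAD match 100 bases from its first base, and the +32.8 kb and +78.9 kb summit windows held no match to any of the 6 motifs. The window printed from between the paired +78.9 kb peaks held an AP-1 match 99 bases from its first base. Other AP-1 matches lay in the +306.2 kb, +445.3 kb and +461.1 kb windows. The half-site of the +283.9 kb window was AAACTAGTTT, which began at the summit base. Over the 22 summit windows, AP-1 was matched in 3, TEAD in 2, RUNX in 4, ZEB in 2, the p53-family half-site in 1 and CRE in 0. Over all 143679 windows of the same length the shares were 11.9% for AP-1, 16.1% for TEAD, 20.1% for RUNX, 19.9% for ZEB, 8.62% for the p53-family half-site and 0.125% for CRE. The median GC content was 39.5% in the TP63 windows and 43.7% over all windows, with a median of 1.00 and 2.00 CpG. A match is a run of letters and not a bound site.

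Of the 22 intervals, 1 lay at the long-isoform promoter, 0 at the short-isoform promoter, 5 within TP63, 3 between TP63 and P3H2, and 13 within P3H2 (ENSG00000090530.10, chr3:189956728-190122437), a gene on the minus strand that encodes a collagen prolyl hydroxylase and whose start lies outside the window. The 5 within TP63 were all in intron 1 of the long isoform, which is 106 kb long. No interval lay upstream of the promoter one, and 16 lay downstream of the gene.

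**Figure D1:**
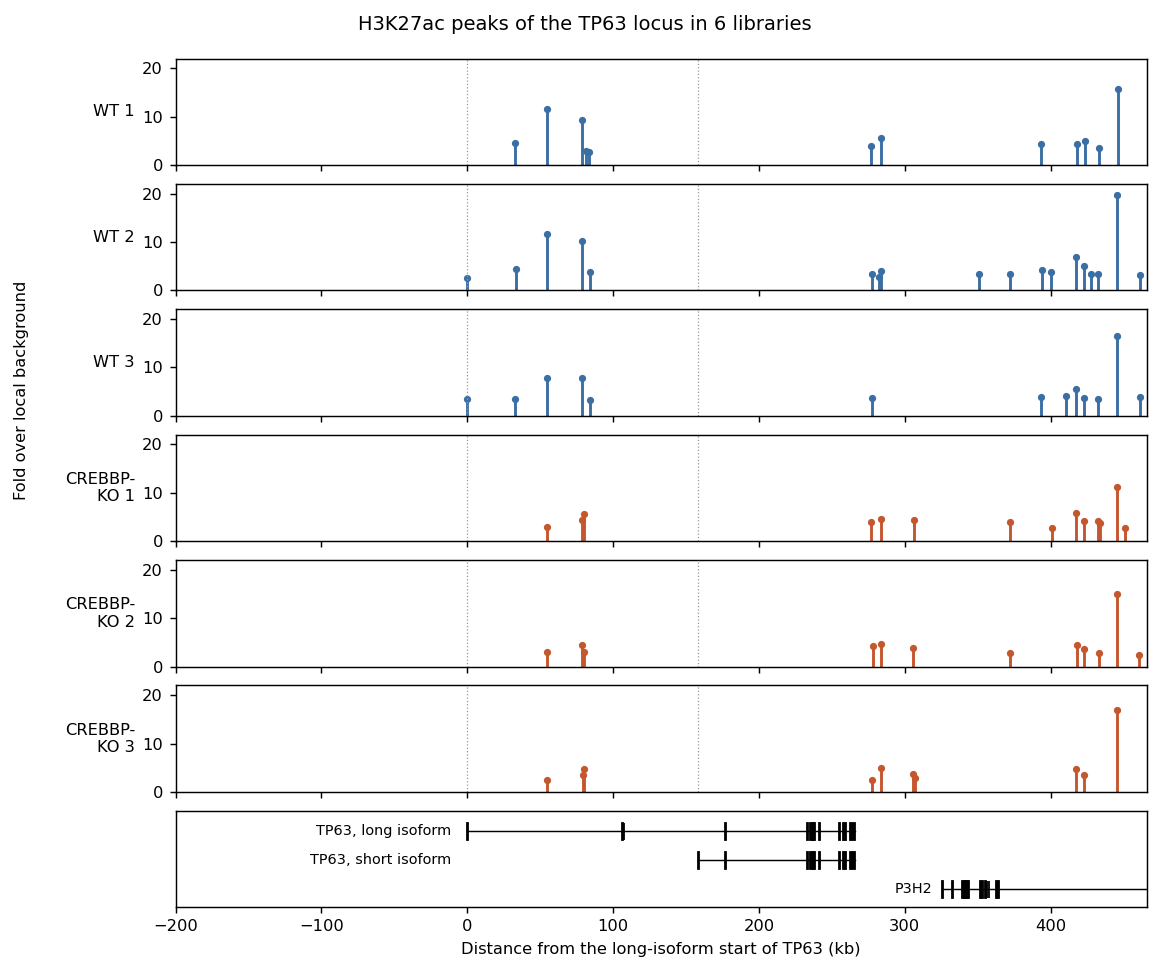
Peaks of the TP63 window in each of the 6 libraries, with distance from the long-isoform start in kb on the horizontal axis and the fold over local background on the vertical axis. Each line with a point is 1 peak at its summit, dotted lines mark the long-isoform and short-isoform starts, and the lowest panel draws exons as bars. Peaks within TP63 stood only in its first intron, and none stood near the short-isoform start in any library.

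Each interval is described in a library by its fold and its percentile, both taken from its highest peak there. The fold is that of the summit over the local background as the authors' peak caller gave it, and the percentile is the rank of that fold among all peaks of the same list, with the highest peaks at the top.

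At the long-isoform promoter, the −0.4 kb interval (chr3:189630684-189631349) held a peak in WT 2, with a fold of 2.49 at percentile 4.88, and in WT 3, with a fold of 3.54 at percentile 31.8. WT 1 and the 3 CREBBP-KO libraries had no peak there. The fold in WT 2 was near the foot of its list, whose 5th-percentile fold was 2.50.

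The short-isoform promoter had no peak within 1 kb of a start in any of the 6 libraries, so the planned test of one promoter against the other was not run. The nearest peaks were far: a stretch of 191.9 kb without a peak in any library ran from chr3:189716100 to 189908037 and began 73.6 kb before the short-isoform start. It was longer than 98.87% of the 143655 stretches between neighbouring merged intervals of a chromosome. It also held MIR944 (ENSG00000216058.1), a microRNA gene in the body of TP63. The stretch upstream of the −0.4 kb interval was longer still, 497.5 kb from chr3:189133150 to 189630683, more than 99.56% of such stretches.

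Among the intron 1 intervals, +54.8 kb (chr3:189685020-189686869) is the one that put the locus forward. Its fold was 11.5, 11.7 and 7.72 in WT 1, 2 and 3 and 2.96, 3.09 and 2.57 in CREBBP-KO 1, 2 and 3. The corresponding percentiles were 87.7, 88.7 and 74.8 in WT and 18.6, 23.9 and 8.32 in CREBBP-KO. Every WT value was above every CREBBP-KO value, and WT 3 was the lowest of its genotype. The mean fold was 10.3 ± 2.22 (SD, n = 3) for WT against 2.87 ± 0.266 (SD, n = 3) for CREBBP-KO, 3.58 times higher in WT. The mean percentile was 83.7 ± 7.72 (SD, n = 3) and 16.9 ± 7.92 (SD, n = 3), a difference of -66.8 points. In bulk chromatin, fewer cells with the mark and less of the mark per cell cannot be told apart.

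The peaks called at +54.8 kb were also shorter and less significant in CREBBP-KO. They covered 1515, 1822 and 1833 bases in the WT libraries and 452, 721 and 362 bases in the CREBBP-KO ones. The −log10 q was 35.3, 38.3 and 17.8 in WT against 3.09, 3.36 and 2.54 in CREBBP-KO. All 6 summits lay within the interval's 1850 bases, and the CREBBP-KO peaks sat inside the span of each WT peak.

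The +78.9 kb interval (chr3:189709592-189712745) was the other strong one of intron 1. Its fold was 9.28, 10.3 and 7.72 in WT and 5.65, 4.43 and 4.80 in CREBBP-KO, at percentiles of 81.7, 85.2 and 74.8 and of 68.9, 55.3 and 58.5. The genotypes again did not overlap, with a mean fold of 9.09 ± 1.29 (SD, n = 3) and 4.96 ± 0.627 (SD, n = 3), 1.83 times higher in WT. The percentile difference was -19.6 points.

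The shape of the call at +78.9 kb differed too. Each WT library had 1 peak across the interval, of 1920, 2507 and 3071 bases, while each CREBBP-KO library had 2 separate peaks, which together covered 1684, 1219 and 1372 bases. The first of each pair had a fold of 4.32, 4.43 and 3.57 and the second one of 5.65, 3.04 and 4.80 in CREBBP-KO 1, 2 and 3. The stretch between them that was free of peaks in all 3 CREBBP-KO libraries was 320 bases, chr3:189710624-189710943, and the 3 WT peaks ran across it. The AP-1 match printed above lies in this stretch.

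The remaining intervals of intron 1 had lower folds in WT and were seen in WT alone. At +32.8 kb (chr3:189663377-189665632) the fold was 4.60, 4.34 and 3.52 in the WT libraries, at percentiles of 53.7, 49.9 and 31.3, with no peak in the 3 CREBBP-KO ones. At +84.5 kb (chr3:189714733-189716099) it was 2.60, 3.88 and 3.17 in WT, and again no CREBBP-KO library had a peak. The +81.6 kb interval had a peak in WT 1 only, with a fold of 2.93. The percentiles of the +84.5 kb peaks, 6.42, 42.6 and 21.5, reached down to the weakest peaks of the lists.

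**Figure D2:**
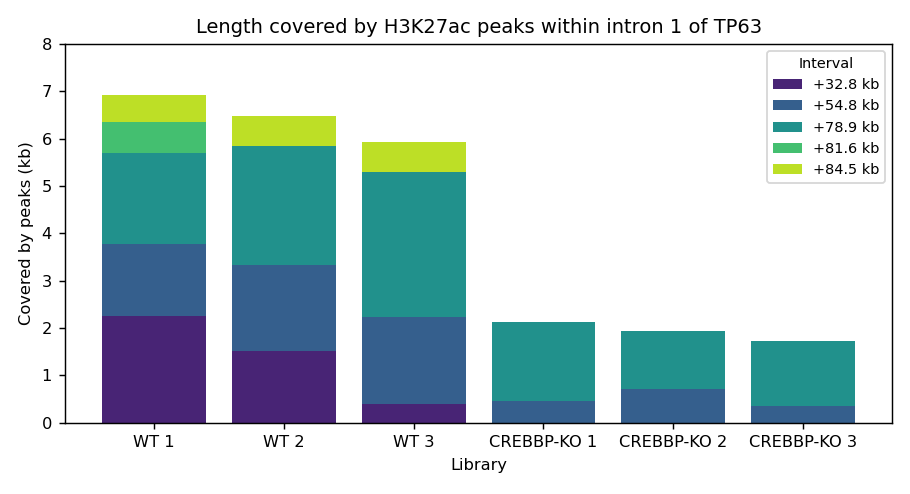
Length covered by H3K27ac peaks in intron 1 of TP63 in each library, in kb, stacked by interval. The WT bars reach 5.94 to 6.92 kb and the CREBBP-KO bars 1.73 to 2.14 kb, and the +32.8 kb and +84.5 kb parts are missing from every CREBBP-KO bar.

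Added up, peaks covered 6.92, 6.47 and 5.94 kb of the gene body in WT and 2.14, 1.94 and 1.73 kb in CREBBP-KO. The genotypes did not overlap: the mean was 6.44 ± 0.490 kb (SD, n = 3) for WT against 1.94 ± 0.201 kb (SD, n = 3) for CREBBP-KO. The number of gene-body peaks was 5, 4 and 4 in WT and 3 in each CREBBP-KO library, with the paired peaks of +78.9 kb counted separately. Because covered length moves with how much of a list was called, the sizes of the lists are given beside it: the CREBBP-KO lists held more peaks, 111697, 105017 and 99008 peaks against 93567, 92891 and 86163 in WT. With the same number of peaks from each list, the difference in mean number of gene-body peaks went from -1.33 to -1.67. The difference in cover of the whole window went from -5.54 to -6.49 kb. The part of list size in the gene-body cover was not tested.

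Downstream of the gene, the intervals mostly did not separate the genotypes. At +278.0 kb the fold was 3.91, 3.43 and 3.72 in WT and 3.99, 4.21 and 2.48 in CREBBP-KO, with overlapping percentiles. At +283.9 kb, where the p53-family half-site stood at the summit, the fold was 5.62 and 4.11 in WT 1 and 2 with no peak in WT 3, and 4.67, 4.67 and 5.04 in CREBBP-KO. The +306.2 kb interval (chr3:189936859-189938407) went the other way from intron 1: it had no peak in WT and a fold of 4.42, 3.83 and 3.66 in CREBBP-KO, at a mean percentile of 47.9 ± 7.91 (SD, n = 3).

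Within P3H2, the highest interval of the whole window was +445.3 kb (chr3:190074966-190079261, 4296 bases, in P3H2 intron 1). Its fold was 15.6, 19.8 and 16.4 in WT and 11.2, 14.9 and 16.9 in CREBBP-KO, so the folds overlapped. Its percentiles of 94.4, 98.1 and 95.0 in WT and 88.1, 92.5 and 93.9 in CREBBP-KO did not, with means of 95.9 ± 1.97 (SD, n = 3) and 91.5 ± 3.03 (SD, n = 3). Percentiles depend on all other peaks of a list, and here the ranking alone decides whether the genotypes are apart.

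The other P3H2 intervals were of middling rank. At +417.5 kb the mean percentile was 61.5 ± 9.93 (SD, n = 3) for WT against 61.7 ± 7.08 (SD, n = 3) for CREBBP-KO, and at +422.8 kb it was 50.9 ± 13.5 (SD, n = 3) and 44.4 ± 8.11 (SD, n = 3). Both overlapped between the genotypes. The +393.6 kb interval had peaks in WT alone, with a fold of 4.32, 4.24 and 3.87. At +432.7 kb the fold was 3.54, 3.46 and 3.47 in WT and 4.09 and 2.80 in CREBBP-KO 1 and 2, with no peak in CREBBP-KO 3. The 8 others within P3H2 had a peak in 1 to 3 libraries, with folds between 2.41 and 4.09.

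Counted together, 6 of the 22 intervals had a peak in all 6 libraries, 10 in 2 to 5 and 6 in a single one. Of the 6, 3 were lower in CREBBP-KO without overlap in percentile (+54.8, +78.9 and +445.3 kb) and 0 were higher, beside 12.1% of all 52187 such intervals lower and 28.9% higher. Of the 10 intervals with a peak in all 3 WT libraries, 3 had none in CREBBP-KO (+32.8, +84.5 and +393.6 kb), beside 2.61% of all such intervals. Of the 8 with a peak in all 3 CREBBP-KO libraries, 1 had none in WT (+306.2 kb), beside 5.97%. Since the locus was selected on this contrast, nothing is read from these shares.

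To place the 6 shared intervals among all 52187, the folds of each library were ranked over these intervals and turned into normal scores, on which 0 is the middle rank. The score difference, CREBBP-KO minus WT, was -2.64 at +54.8 kb, the second lowest of all, and -0.99 at +78.9 kb, while the central 90% of intervals lay between -0.88 and 0.87. It was -0.53 at +445.3 kb, -0.46 at +422.8 kb, -0.33 at +278.0 kb and -0.20 at +417.5 kb. The median over the 6 was -0.49, with a median of 0.00 over all intervals. On the linear scale, the median ratio of mean folds, CREBBP-KO over WT, was 0.830 for the 6 and 1.06 for all.

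**Figure D3:**
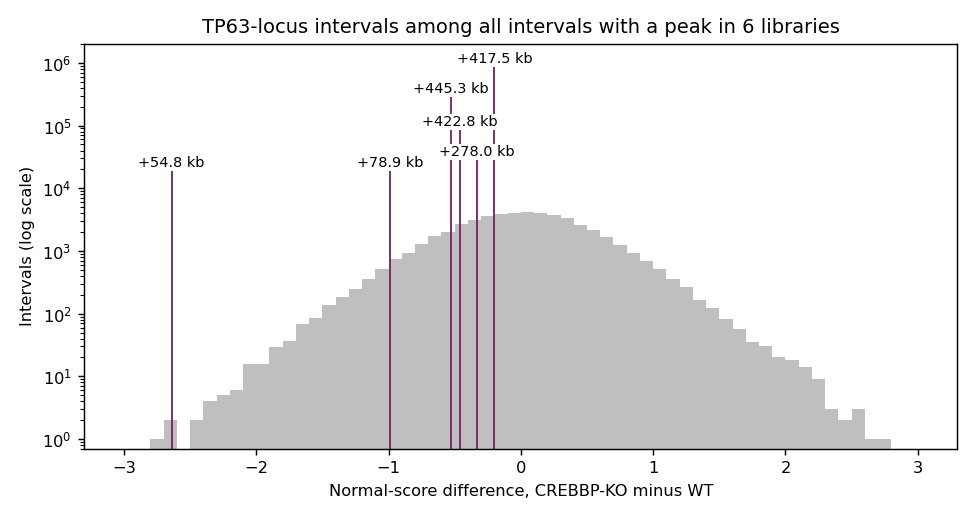
Histogram of the normal-score difference, CREBBP-KO minus WT, over all 52187 intervals with a peak in each of the 6 libraries, on a log-scaled vertical axis. Vertical lines mark the 6 TP63-locus intervals and their heights carry no value. The +54.8 kb interval stands at -2.64, at the left end, and the other 5 stand between -0.99 and -0.20.

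Over the whole window the libraries had 12, 18 and 13 peaks in WT and 14, 12 and 10 in CREBBP-KO, which overlapped. The peaks covered 15.4, 20.6 and 17.1 kb in WT and 12.9, 13.4 and 10.3 kb in CREBBP-KO, with no overlap, and the means were 17.7 ± 2.65 kb (SD, n = 3) and 12.2 ± 1.68 kb (SD, n = 3). WT 2 held the most peaks, and without it the difference in mean number of peaks shrank from -2.33 to -0.50. Downstream of the gene the peaks numbered 7, 13 and 8 in WT and 11, 9 and 7 in CREBBP-KO and overlapped, and of the difference of 5.54 kb in mean cover 4.50 kb lay in the gene body.

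A comparison of places within a library did not set the genotypes against each other. It was not free of the choice of the locus, since the interval behind that choice lies in the gene body with a peak in each library. In each CREBBP-KO library the 3 body peaks were the +54.8 kb peak and the paired +78.9 kb ones. The −0.4 kb interval, just before the gene start, counted with the flanks. The gene body held 1.88, 1.50 and 1.50 peaks per 100 kb in WT and 1.13 in each CREBBP-KO library, and the flanks of 200 kb held 1.75, 3.50 and 2.25 in WT and 2.75, 2.25 and 1.75 in CREBBP-KO. The body was below the flanks in all libraries except WT 1, by -0.996 ± 0.759 peaks per 100 kb on average (SD, n = 6, two-sided exact permutation test by sign flips, p = 0.0625, where the smallest possible p is 0.03125). The test therefore did not pass 0.05 at this width of flank. It gave p = 0.03125 with flanks of 500 kb and a difference of -1.25, and p = 0.594 with flanks of 100 kb and a difference of -0.204 (exact permutation tests). The flanks of 200 kb were uneven. The downstream one held 7 to 13 peaks per library, and the upstream one 0 or 1, fewer than the 3 to 5 of the gene body. The lower density of the body is thus against the downstream side only. Over the genome the libraries had 2.79 to 3.62 peaks per 100 kb.

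At the borders, the nearest interval outside the window upstream was at -499.0 kb, with peaks in WT 1 and 2 at percentiles 12.1 and 14.0 and in the 3 CREBBP-KO libraries at 56.0, 58.2 and 60.1. Downstream, the last interval inside was +461.1 kb, with a peak in WT 2, WT 3 and CREBBP-KO 2, and the first outside was at +470.2 kb, at percentiles of 20.8, 38.5 and 43.8 in WT and 11.0 and 44.4 in CREBBP-KO 1 and 3.

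Genes linked to p63 by name were examined through their promoters, because the peak lists give no transcript level. Of 63 names, among them partners, basal keratins and adhesion genes, signalling genes, growth genes and neighbours, 23 had a promoter interval with a peak in all 6 libraries and a fold of at least 5 in all 3 libraries of a genotype. The names include PVRL1, the older symbol of NECTIN1, so that gene stands in the list under both. By limma on normal scores of the ranks, with Benjamini-Hochberg adjustment over 34864 intervals and a threshold of 0.05, 4 of the 23 were higher in CREBBP-KO, 5 were lower and 14 were not called. Among all 11404 protein-coding genes with such a promoter, 26.7% were higher and 8.13% lower. The median shift was -0.06 for the list and 0.21 for all. Scores and percentiles are ranks within a library, so higher and lower are relative to its other intervals. A change in the total amount of H3K27ac cannot be seen in them. The study reports a fall of H3K27ac in CREBBP-KO cells by mass spectrometry, of borderline significance, and a small but significant one by immunofluorescence.

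The called p63-linked promoters moved in both directions. LPP, a LIM-domain protein of focal adhesions whose gene lies on the same chromosome, had the largest downward shift of the list, -1.29 (SE 0.18, adjusted p = 2.59e-05 from limma). Its scores were 2.59, 1.98 and 2.61 in WT and at most 1.11 in the CREBBP-KO libraries. LAMA3, a laminin chain of the epithelial basement membrane, had a shift of -0.75 (SE 0.17, adjusted p = 0.00153 from limma).

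In the other direction, the EGF receptor gene EGFR had a shift of 0.92 (SE 0.18, adjusted p = 0.000449 from limma). Its ligand HBEGF had one of 0.99 (SE 0.31, adjusted p = 0.0153 from limma) and ADA, adenosine deaminase, one of 0.98 (SE 0.31, adjusted p = 0.0162 from limma). In WT their scores were at most -0.90 for HBEGF and -1.30 for ADA. The filter asks for a fold of at least 5 in only 1 genotype, and passing through CREBBP-KO alone favours an upward shift. Through which genotype each passed is not given here. With all intervals shared by the 6 libraries fitted, the shift was 0.71 for HBEGF, 0.79 for ADA and 0.77 for EGFR. The calls of HBEGF and ADA rest on low-ranked intervals and single libraries: the adjusted p from limma of HBEGF was 0.0508 without WT 1, 0.0790 without WT 2 and 0.0763 without CREBBP-KO 1, and that of ADA was 0.0944 without WT 2. Without WT 2, 1 of the 23 was called higher. Other calls, named here after their values were seen, were PERP, a membrane protein of desmosomes, at 0.62, and KRT15, a basal keratin, and CDKN2A, which encodes the cell-cycle inhibitor p16, at -0.64 and -0.41. The number of lower calls was 3 without WT 1, without CREBBP-KO 2 or without CREBBP-KO 3.

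Most of the basal programme could not be tested. The 40 names without a testable promoter interval included PVRL1, although NECTIN1 was tested, and KRT5, KRT14, COL17A1, DSG3, SOX2, TFAP2A, TFAP2C, GRHL2 and GRHL3, and also P3H2 and TPRG1 (ENSG00000188001.10), the neighbours of TP63. By gene group, the list tested 3 of 11 partners and upstream factors, 7 of 22 keratin and adhesion names, 3 of 10 signalling genes and 6 of 8 growth genes. Of the 3 partners tested, KLF4, KLF5 and KMT2D, none was called.

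The labelled cell type was checked against promoter peaks of marker genes. Of 9 epithelial markers, 3 had a promoter peak in all 6 libraries (EPCAM, KRT8 and CLDN7) and 5 in none, CDH1, KRT19, CLDN4, ESRP1 and GRHL2. KRT18 had one in 3 WT and 2 CREBBP-KO libraries. Of 7 intestinal markers, MUC2 had one in all 6 and CDX1, CDX2, VIL1, HNF4A, LGR5 and KRT20 in none. All 9 fibroblast and mesenchymal markers had one in all 6 libraries, with COL1A1 at a mean percentile of 98.4 in WT and 99.8 in CREBBP-KO. The epithelial list was thus divided, and 6 of the 7 intestinal markers were without a promoter peak in both genotypes. The mean percentile went from 5.27 in WT to 33.8 in CREBBP-KO at EPCAM and from 52.9 to 84.1 at MUC2. At KRT8 it went from 48.0 to 67.9, and at CLDN7 from 82.2 to 84.1. Over all 52187 intervals with a peak in the 6 libraries, the median percentile difference was 2.69 points. Of these intervals, 28.9% were higher in CREBBP-KO without overlap and 12.1% lower. Of 4 endothelial markers, PECAM1 had a promoter peak in 0 WT libraries and in the 3 CREBBP-KO ones, at a mean percentile of 22.7, and CDH5, KDR and TIE1 had none. Among all intervals with a peak in the 3 CREBBP-KO libraries, 5.97% had none in WT. None of 5 blood markers had a peak in any library.

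Of 10 basal and squamous markers, which are the usual setting of short-isoform p63, KRT15, KRT17 and BNC1 had a promoter peak in all 6 libraries, and KRT14, COL17A1, DSG3, DSC3 and PKP1 in none. The WT libraries each had 3 of the 10 and the CREBBP-KO libraries 4 to 5. KRT6A had a promoter peak in 0 WT libraries and in the 3 CREBBP-KO ones, at a mean percentile of 86.7, and KRT5 in 1 CREBBP-KO library. The share of all intervals with a peak in the 3 CREBBP-KO libraries and none in WT was 5.97%. The mean percentile went from 78.7 in WT to 72.6 in CREBBP-KO at KRT15. It went from 59.8 to 69.4 at KRT17 and from 93.1 to 91.2 at BNC1. The part of these marker genes in the lower folds of TP63 intron 1 was not tested.

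Genes whose intervals behaved most like those of TP63 were sought among the 2419 protein-coding genes with at least 5 gene-body intervals present in all 6 libraries. The median percentile of the TP63 gene body, which rests on 2 intervals, was 84.7, 86.9 and 74.8 in WT and 43.8, 39.6 and 33.4 in CREBBP-KO. By root mean square difference over the 6 libraries the nearest was DAB1, an adaptor of Reelin signalling, at 11.6 percentile points over 8 intervals. It was followed by VAPB, a membrane protein of the endoplasmic reticulum, at 12.8 over 5 intervals, and ANGPT1, a ligand of the TIE2 receptor, at 12.9 over 10. DAB1 went from 74.0, 74.7 and 76.4 in WT to 55.8, 52.7 and 48.6 in CREBBP-KO, a smaller step than that of TP63. However, 1 of the 2 TP63 intervals is +54.8 kb, which chose the locus, so nothing is read from the larger step. TP63 itself falls short of the 5 intervals asked of the other genes.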

How the data were processed

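H3K27ac ChIP-seq peak lists of 3 WT and 3 CREBBP-KO libraries were analysed; the input libraries were not analysed here. Per the study's methods and the submitters' processing notes, the authors aligned reads to hg38 with BWA in an nf-core pipeline and called narrow peaks with MACS2, 1 list per library. Whether the lists precede or follow the downsampling of reads, and which input was the control, is not given in the sources used here. The deposited fold is a linear ratio of the peak summit over local background, the deposited p-value and q-value are on a −log10 scale, and the deposited score, an integer derived from q, was not used. The lowest −log10 q was 1.30 in every list. Since the lists hold no reads, depth is unknown and no counting interval was computed. DiffBind, which needs reads, was not repeated. With 3 libraries per genotype, p-values measure the spread between these libraries, which may be repeat cultures of the same population.

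Peaks were merged where they overlapped or touched, and a percentile is the mid-rank of the highest fold within its list. Promoters were taken as 1 kb either side of a protein-coding start (GENCODE release 44). limma (lmFit, and eBayes with a trend) was fitted to normal scores of the ranks, CREBBP-KO minus WT. The fit was tested on simulated data: of 200 shifts planted among 34864 intervals it recovered 26.5% at 1 score unit, 85.5% at 2 and 99.5% at 3, with 0 to 7 false calls. The planted shifts were few, upward only and set on independent normal noise. In the real fit 26.7% of promoters were called higher and 8.13% lower, so recovery there may differ. Named by rule were the promoter intervals, the interval that chose the locus, the 5 of highest mean percentile, the 5 of largest rank difference in each direction, the 3 called p63-linked promoters of largest shift in each direction, and the 3 genes most like TP63. A promoter call of the p63-linked list is not reported here, and summit sequences are printed for 6 of the 22 intervals. The members, lists and tests were chosen with earlier results of these data known. Alternatives to the ranking, the list lengths, the filters, the flanks and the model were tried, as were fits that drop 1 library. The versions used were limma 3.58.1 in R 4.3.3, and matplotlib 3.10.9, scipy 1.17.1, pandas 2.3.3 and numpy 2.4.6 in Python 3.11.15.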

Additional observations from a re-analysis of the deposited data

How the results depend on the processing

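Of 187 values recomputed under another setting, none changed sign and 2 came to 0, both given here. Many of the values are counts, which cannot change sign. Some settings, such as the replicate block for a mean difference, leave a value the same by design. The tally is therefore no measure of how firm the results are. The median percentile difference of the shared TP63 intervals, -5.43, was -19.6 with flanks of 100 kb, -2.54 with flanks of 500 kb, -11.2 with the same number of peaks from each list and -9.94 without CREBBP-KO 1. It was also -19.6 for the 3 with a fold of at least 5 in all 3 libraries of a genotype, but +54.8 kb and +78.9 kb pass that filter through WT alone, so the filter itself fixes the larger difference. Without ranking, on the log2 scale of the fold, it was -0.27, and that of the +54.8 kb interval was -1.82. With a library left out, the +54.8 kb percentile difference lay between -71.2 and -62.5. The difference in number of peaks in the window, -2.33, was 0 with flanks of 500 kb. The density difference was -0.892 with the same number of peaks from each list and -1.25 with flanks of 500 kb (both p = 0.03125, exact permutation test), and -0.0612 among peaks of fold at least 5 (p = 0.75, exact permutation test). The long-isoform promoter had a peak in 2 libraries, in 0 at a −log10 q of at least 5, in 1 with the same number of peaks from each list, and in 1 to 2 with a library left out. Ranking by −log10 p gave no value for that promoter comparison, as the short-isoform promoter had no peak.

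Of the p63-linked promoters, 3 were called lower when all intervals shared by the 6 libraries were fitted. With a library left out, 1 to 5 were called higher and 3 to 5 lower. Over all promoters the higher calls numbered 3044, and 1345 when peaks were ranked by −log10 p. With the replicate block, 4 were called higher and 4 lower. The replicate numbers are only names: the deviations of same-numbered libraries correlated at r = 0.011, 0.014 and 0.028 over intervals. The causes of these changes were not tested. Intervals near the lowest folds of a list can be called in one library and missed in another, which limits what is read from them. Those called in all 3 libraries of 1 genotype alone were mostly of middling rank. Their mean percentiles were 45.0 at +32.8 kb, 23.5 at +84.5 kb and 46.3 at +393.6 kb in WT, and 47.9 at +306.2 kb in CREBBP-KO. The part of weak folds in these calls was not tested.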
